A study of Mus musculus with 71 samples.

Results

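Whole-blood RNA of mice with HOCl-induced disease that had received the anti-galectin-3 antibody D11 was compared with that of control mice across all genes, to describe what remained different after treatment. The members were chosen by label: the 12 mice labelled HOCL_D11 and the 11 labelled CTRL, which are 23 of the 71 mice of the series. The other mice, from the HOCl group and from 3 HOCl groups given E07, D06 or BPR21, are used here only where a value is set beside those of D11. All were female Balb/c AnNRj mice, 6 weeks old at the start. D11 mice were injected into the skin with hypochlorous acid (HOCl) 5 days per week for 6 weeks, and control mice received PBS. D11, a full-length IgG1 antibody whose Fc part carries the LALA mutation that weakens immune effector functions, was given under the skin at 20 mg/kg on day -1 and every 5 days from day 5 until euthanasia. The groups were housed in separate cages, so cage and group cannot be told apart, and no group given an unrelated antibody was analysed here. In the labels of the control mice the genotype field reads HOCL while title and treatment mark them as controls; their group was taken from the title.

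As background, HOCl is a strong oxidant made by activated phagocytes, and its repeated injection into mouse skin is used as a model of systemic sclerosis, a disease of autoimmunity, inflammation and fibrosis. Galectin-3 is a secreted lectin that binds beta-galactosides on glycoproteins and is made in quantity by macrophages. RNA of whole blood comes from leukocytes, platelets and reticulocytes, the young red cells that still hold RNA. In such bulk samples, more cells of a type and more RNA per cell of that type cannot be told apart.

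Each library held between 12295725 and 15861471 counts over all genes (median 13668782 in control and 13558719 in D11 mice). The levels below are the authors' variance-stabilised values (vst), a scale close to log2 on which differences of low-count genes are compressed, available for 10508 genes. Markers of blood were present: Alas2, an enzyme of heme synthesis in red cell precursors, had a median of 18.98 in control mice, while Col1a1, Krt14 and Acta1, which mark skin and muscle, were not among the 10508 genes. Only 1 of 13 genes of a skin and fibroblast list was measured, Fn1, whose log2 difference was -0.49 (adjusted p = 0.191, limma). Without control mouse 12, described below, Fn1 was called lower in D11 mice (-0.61). Of 11 genes of muscle, liver and vessel 4 were measured, Alb, Apoa1, Ttr and Pecam1, with differences of 0.14 to 0.73 (adjusted p of 0.334 to 0.51); as a share of counts the list spanned 0.0115% to 0.0238% in control and 0.0112% to 0.0299% in D11 mice.

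Several libraries stood apart. Control mouse 12 had 17.8% of its counts on an erythroid list of 49 genes (other controls 5.14% to 15.7%), 0.338% on a monocyte list of 20 genes (others 0.489% to 0.887%), 9.89% on ribosomal RNA genes (others 5.48% to 8.81%) and a size factor of 0.732, the lowest of the control group. Its values thus lay within the range of the D11 mice, and its median correlation with the other 22 libraries was 0.944. D11 mice 3 and 10 carried 1.56% and 3.44% of counts on haemoglobin genes, against at most 0.448% in the other 21 mice, and had median correlations of 0.949 and 0.926; every remaining library reached at least 0.958. Ribosomal RNA took 7.87% to 13.05% of counts in D11 mice, with a mean of 9.96% ± 1.48 (SD, n = 12), and 5.48% to 9.89% in control mice, with a mean of 7.10% ± 1.31 (SD, n = 11). The ranges overlapped, yet all 12 D11 mice were above the control median (two-sided permutation test, p = 0.00016, adjusted p = 0.00096 over 6 library measures). Size factors were lower in D11 mice (mean 0.969 against 1.295, p = 0.00454, adjusted p = 0.00908, same test), whereas total counts (adjusted p = 0.199), the 18S gene Rn18s (2.56% against 1.68%, adjusted p = 0.0796) and mitochondrial mRNA (adjusted p = 0.422) did not pass. Most of the ribosomal RNA was mitochondrial, with means of 7.40% of counts in D11 and 5.42% in control mice (adjusted p = 0.00192, same test).

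**Figure D1:**
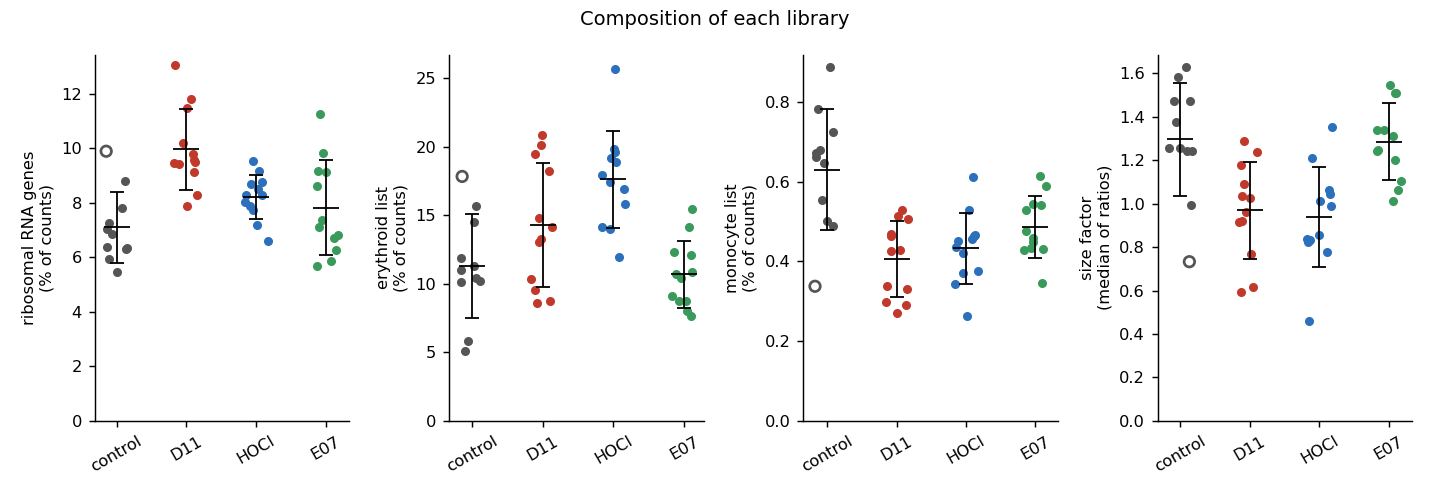
Percent of counts on ribosomal RNA genes, on the erythroid list and on the monocyte list, and the size factor (no unit), in each mouse of the control, D11, HOCl and E07 groups; lines mark the mean and 1 SD, and the open circle is control mouse 12. Control mouse 12 has 17.8% of counts on the erythroid list and 0.338% on the monocyte list, beyond all other control mice in both.

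With limma, 8 of 10508 genes passed both thresholds (adjusted p not above 0.05, fold change 1.3 or more), which is 0.0761% of those tested. All 8 were higher in D11 mice: Kcnj5, Ccr3, Camk1, Ighg1, Alox15, Pnpla8, Gng11 and S100a10. No gene passed as lower, although 584 genes (5.56%) were lower and 1113 (10.6%) higher at an unadjusted p under 0.05. On the counts, edgeR also called 0 genes lower, and DESeq2 on the genes of the vst table called 212 higher and 23 lower. DESeq2 gave no adjusted p for Kcnj5, Ighg1 and some other genes, so its correction covered fewer genes. By edgeR's quasi-likelihood test 8 of 12985 genes were called (0.0616%), and 6 of these were called by limma too; Slc43a3 and H4c3 came in, Gng11 and S100a10 had adjusted p values of 0.0712. Leaving out control mouse 12 raised the limma count to 544, with 495 higher (4.71%) and 49 lower (0.466%), and the edgeR count to 841. Leaving out any other mouse gave 5 to 32 calls with limma and 3 to 49 with edgeR; the counts were highest without D11 mouse 2 (32 and 49), control mouse 4 (20 and 40) and, for limma, control mouse 6 (14). Without control mouse 12 and D11 mice 3 and 10 together, limma called 280 genes higher and 48 lower.

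Scale and covariates also bore on the 8 calls. With log2(CPM + 1) of the counts per total in place of vst values, the median of all genes was -0.36 and none of the 8 passed, although Kcnj5 (0.85) and Ighg1 (1.07) had larger differences than on the compressed vst scale. On the same log2(CPM + 1) scale with size factors, tried after seeing the data, Kcnj5, Ccr3, Camk1, Ighg1 and Alox15 passed, and Pnpla8, Gng11 and S100a10 had adjusted p values of 0.062 to 0.0879 (limma). With the percent of ribosomal RNA in the model, which itself differed between the groups, Ccr3 alone passed (1.35, adjusted p = 0.0103). Of the calls lost there, Kcnj5 (0.67), Camk1 (0.69), Ighg1 (0.79) and Alox15 (0.81) had differences no smaller than 0.67, against 0.61, 0.69, 0.74 and 0.79 without it. Those of Pnpla8 (0.22), Gng11 (0.13) and S100a10 (0.11) were less than the 0.46, 0.80 and 0.58 without it.

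**Figure D2:**
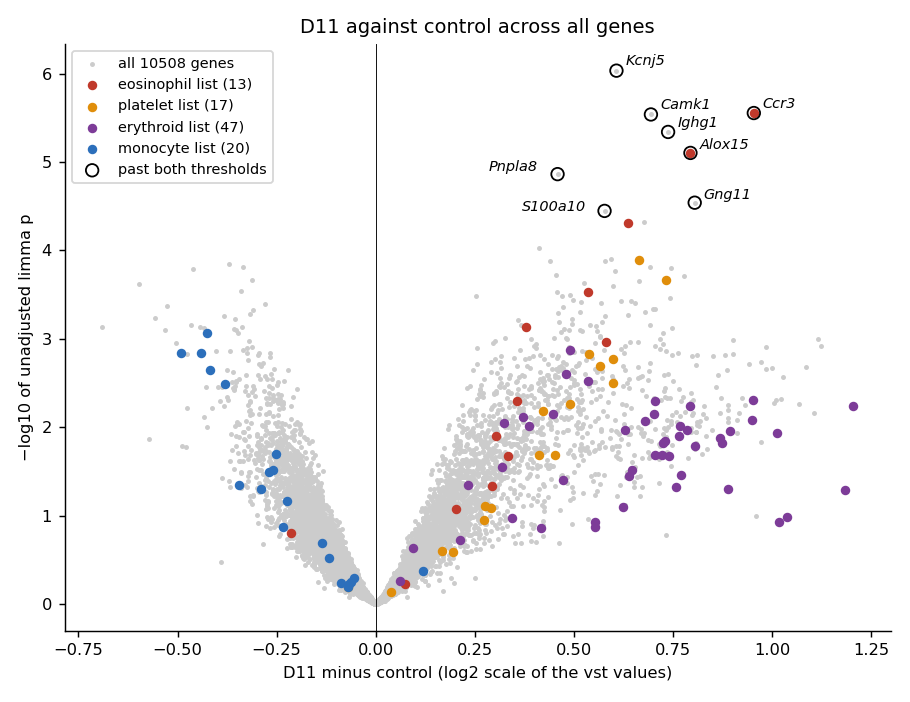
Log2 difference, D11 minus control (x axis, vst scale), against -log10 of the unadjusted limma p (y axis) for 10508 genes, with the gene lists coloured and the genes past both thresholds circled. All 8 circled genes lie to the right, between 0.46 and 0.95.

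**Figure D3:**
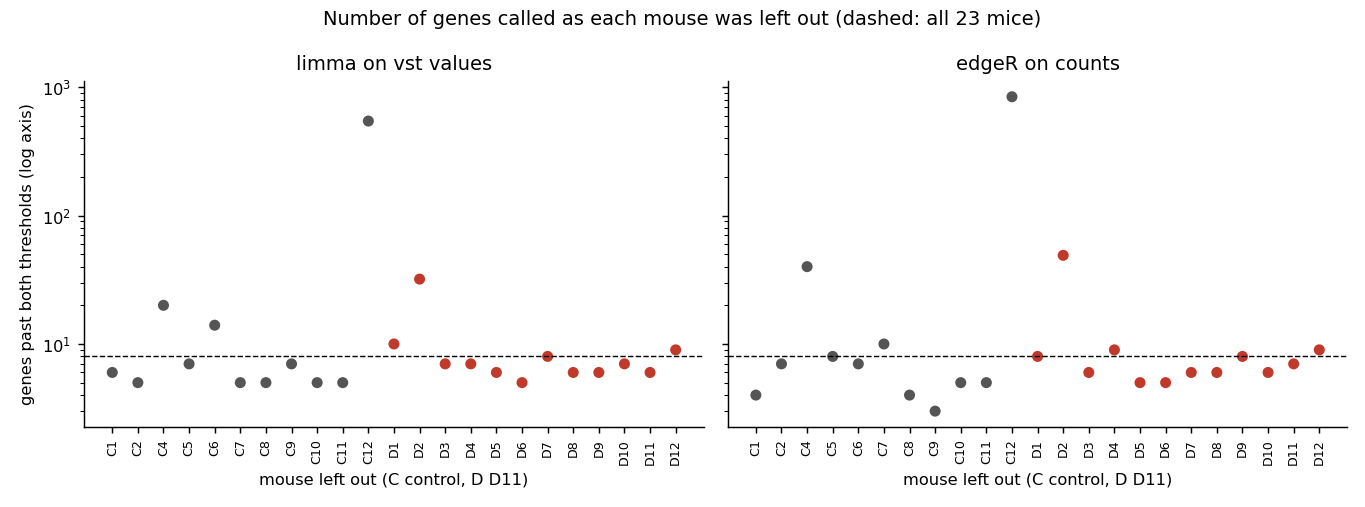
Number of genes past both thresholds (log axis) when each of the 23 mice is left out, for limma and edgeR; dashed lines mark the count with all mice, 8 for both. Leaving out control mouse 12 gives 544 and 841 genes, and the other 22 points lie at 49 or below.

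Genes of eosinophils, granulocytes that carry toxic granule proteins and follow eotaxin, gave 2 of the 8 calls. Ccr3 (chr9:123822009-123831726 in GRCm39), the eotaxin receptor, lay at 8.26, 8.91 and 9.29 (lowest, median and highest vst value) in control mice and at 8.45, 9.89 and 10.46 in D11 mice. The groups touched through 1 mouse: 11 of 12 D11 mice were above every control, and D11 mouse 3 was at 8.45. The difference was 0.95 ± 0.162 (log2, SE; adjusted p = 0.0102, limma), and it passed in each of the 23 fits that left out 1 mouse. Alox15 (chr11:70234970-70242858), the 12/15-lipoxygenase, lay at 8.07, 8.57 and 9.14 in control and at 8.79, 9.43 and 9.97 in D11 mice. All 12 D11 mice were above the control median and 8 above every control (0.79 ± 0.145, adjusted p = 0.0166), and this call also held in all 23 fits.

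Of the eosinophil list, 13 of 14 genes were measured, 12 were higher in D11 mice and 10 had an unadjusted p under 0.05 (background 10.6%); the median difference was 0.36, against -0.01 over all genes. Beyond Ccr3 and Alox15, Ear6, an eosinophil-associated ribonuclease, differed by 0.64 (adjusted p = 0.051), but it belongs to a family of near-identical copies between which reads may be split. Cebpe, a transcription factor of granule formation, differed by 0.54 (adjusted p = 0.0974), and Siglecf, the inhibitory lectin that marks mouse eosinophils, by 0.38 (adjusted p = 0.106), from 7.53 (median) in control to 7.79 in D11 mice. The interleukin-5 receptor Il5ra (0.30, adjusted p = 0.175) and the major basic protein gene Prg2 (0.29, adjusted p = 0.298) did not pass. Without control mouse 12, 5 of the 13 genes were called higher (4.71% of all genes), Ccr3, Alox15, Ear6, Cebpe and Ear1, with a list median of 0.34. Siglecf reached an adjusted p of 0.0337 (limma) but not the fold threshold. As a share of counts the list overlapped widely, with 0.0117% to 0.0357% in control and 0.0114% to 0.0428% in D11 mice. The basophil and mast cell list was higher in 10 of 11 measured genes, 6 with an unadjusted p under 0.05 and none called; Gata2, a transcription factor of both lineages, differed by 0.38 (adjusted p = 0.112), and Mcpt8, a basophil protease, by 0.42 (adjusted p = 0.193).

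Sequences upstream of Ccr3, the receptor with the strongest eosinophil difference, and of Il5ra, a lineage gene that did not pass, are shown to compare a called with an uncalled member for one short motif. GATA factors of erythroid, eosinophil, basophil and platelet precursors bind sites of the form AGATAA or TGATAA (reverse complements TTATCT and TTATCA, on either strand). The 250 bases before each RefSeq gene start (table built on GRCm38.p6) were matched exactly and once to GRCm39, at chr9:123821758-123822007 (plus strand) for Ccr3 and at chr6:106725999-106726248 (minus strand) for Il5ra. Capitals mark the motif, and each sequence is written 5′ to 3′.
Ccr3: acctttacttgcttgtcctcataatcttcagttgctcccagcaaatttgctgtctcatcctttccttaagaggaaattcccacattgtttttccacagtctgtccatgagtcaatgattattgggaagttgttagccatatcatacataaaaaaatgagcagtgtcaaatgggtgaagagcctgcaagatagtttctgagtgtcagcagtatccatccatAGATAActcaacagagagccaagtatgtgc
Il5ra: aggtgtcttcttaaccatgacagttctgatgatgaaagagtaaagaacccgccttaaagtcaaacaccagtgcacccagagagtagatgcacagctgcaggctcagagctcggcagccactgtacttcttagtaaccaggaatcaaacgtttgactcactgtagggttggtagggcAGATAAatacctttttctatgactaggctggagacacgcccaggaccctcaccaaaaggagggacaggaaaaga
Each of these windows holds 1 motif, and that of Siglecf, not shown, holds 0. It was found in 4 of 9 eosinophil genes with a window in the table (44.4%), 16 of 33 erythroid (48.5%), 4 of 13 platelet (30.8%) and 1 of 16 monocyte genes (6.25%), and in 795 of 8256 genes overall (9.63%). These are matches of letters, not measured sites.

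Ighg1 (chr12:113288860-113294143), the constant region of the IgG1 heavy chain, was the single antibody gene called. It lay at 6.74, 7.06 and 7.44 in control and at 7.37, 7.65 and 8.42 in D11 mice. Every D11 mouse was above the control median and 10 of 12 above all controls (0.74 ± 0.13, adjusted p = 0.012, limma; 1.71 on the less compressed edgeR scale, adjusted p = 0.0122). The counts behind it were small, 11 to 81 per control library and 36 to 212 per D11 library. By the annotation of the reference genome, another 6 heavy-chain constant genes were measured, for IgA, IgD, IgG2b, IgG2c, IgG3 and IgM, and none for IgE. They differed by -0.12 to 0.03, all with an unadjusted p above 0.05 (limma). The gene annotated for IgG2c was low, with a vst value of 6.06 in the lowest mouse of each group. Which gene of these Balb/c mice gave its reads was not tested. Of 173 immunoglobulin variable genes 4 were higher and 4 lower at an unadjusted p under 0.05, beside 10.6% and 5.56% of all genes. Of the plasma cell list of 15 genes 13 were measured, of which 5 were higher and Ighg1 alone passed.

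Kcnj5 (chr9:32223328-32255691), a subunit of a potassium channel opened by G proteins, had the smallest p. It lay at 6.79, 7.09 and 7.57 in control and at 7.33, 7.79 and 7.94 in D11 mice, with 9 of 12 D11 mice above every control (0.61 ± 0.0965, adjusted p = 0.00975, limma). Camk1 (chr6:113311071-113321106), a kinase activated by calcium and calmodulin, lay at 7.82, 8.59 and 9.14 in control and at 8.70, 9.29 and 9.65 in D11 mice (0.69 ± 0.118, adjusted p = 0.0102). In both genes all 12 D11 mice were above the control median, and both calls held in all 23 fits leaving out 1 mouse. Camk1 overlaps Ogg1 on the opposite strand, and Kcnj5 overlaps 2 long noncoding RNAs there. Pnpla8, described next, overlaps the long noncoding RNAs Gm47096 and Gm59406 on the opposite strand and the processed pseudogene Gm2027 on its own strand. The strand setting of the counting is not given in the sources used here.

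Pnpla8 (chr12:44267948-44374085), a calcium-independent phospholipase, lay at 9.45, 9.82 and 10.16 in control and at 9.95, 10.26 and 10.69 in D11 mice (0.46 ± 0.0868, adjusted p = 0.024, limma). S100a10 (chr3:93462213-93474510), the partner of annexin A2, lay at 11.94, 12.26 and 12.81 against 12.38, 12.85 and 13.59 (0.58 ± 0.117, adjusted p = 0.047), and Gng11 (chr6:4003904-4008448), a gamma subunit of G proteins abundant in platelets, at 13.43, 14.06 and 15.04 against 14.47, 14.83 and 15.94 (0.80 ± 0.161, adjusted p = 0.0433). All 12 D11 mice exceeded the control median in each, but the ranges of the groups overlapped. These were the calls that depended most on single mice: of the 23 fits leaving out 1 mouse, Pnpla8 passed in 16, Gng11 in 8 and S100a10 in 6. With control mouse 12 left out, all 3 had adjusted p values of 0.0033 or less; it was the highest control in each of them. Of the 2 further edgeR calls, Slc43a3, a nucleobase transporter, differed by 1.19 (adjusted p = 0.046, edgeR), and the histone gene H4c3 by 0.87 (adjusted p = 0.0498, edgeR), uncertain because H4 genes are near-identical. Every D11 mouse lay above the control median in 299 of the 10508 genes (2.85%).

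**Figure D4:**
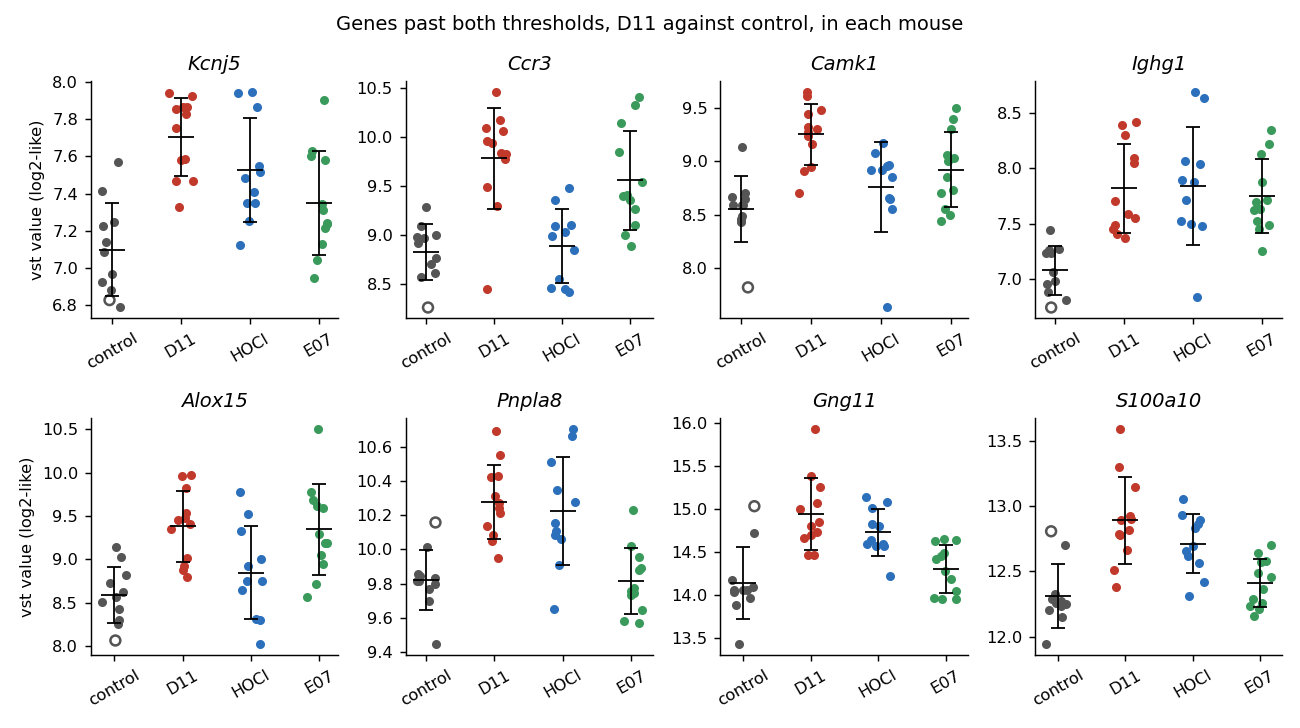
The vst value (log2-like) of the 8 genes past both thresholds in each mouse of the control, D11, HOCl and E07 groups, with the mean and 1 SD. Ccr3 in D11 mice lies above every control in 11 of 12 mice, and Gng11 in 4 of 12.

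Platelet genes were higher in D11 mice without passing the test. Of 17 measured genes 16 were higher, 10 with an unadjusted p under 0.05 (background 10.6%), and the median difference was 0.42. None was called. Ppbp, a platelet chemokine, lay at 12.94, 13.64 and 14.06 in control and at 13.73, 14.18 and 15.16 in D11 mice (0.67, adjusted p = 0.0851, limma), and Pf4, another platelet chemokine, at 13.47, 13.97 and 14.66 against 14.05, 14.59 and 15.98 (0.73, adjusted p = 0.0898). All 12 D11 mice were above the control median in both, with overlapping ranges. The platelet integrin Itga2b differed by 0.41 (adjusted p = 0.208). Without control mouse 12, 7 of the 17 were called higher (4.71% of all genes), among them Ppbp (adjusted p = 0.00866, limma) and Pf4 (0.00847). The list median was -0.07 when the percent of ribosomal RNA was put in the model, and was 0.11 under total-count scaling.

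Red cell genes showed the highest list median, 0.70 over 47 measured genes, all higher in D11 mice. An unadjusted p under 0.05 was reached by 35 of them (background 10.6%), yet none was called. Alas2 lay at 17.66, 18.98 and 20.18 in control and at 18.68, 19.59 and 20.75 in D11 mice (0.64, adjusted p = 0.265, limma), and Bnip3l, needed for the clearing of mitochondria from reticulocytes, at 15.06, 16.54 and 19.00 against 16.61, 17.66 and 18.62 (0.95, adjusted p = 0.13). The groups overlapped widely in both, control mouse 12 being the highest control. Without control mouse 12, 22 of the 47 genes were called higher (4.71% of all genes), and the list median was 0.84. They included Bnip3l (1.19, adjusted p = 0.00839, limma) and Rhag, a membrane protein of the Rh complex (0.56, adjusted p = 0.0129). Hbb-bs, an adult beta globin (1.18, adjusted p = 0.31), was highest in D11 mice 10 and 3, and globin transcripts were depleted from the libraries. In neighbouring lists, 9 of 12 heme synthesis genes and 10 of 15 ubiquitin-system genes of reticulocytes were higher at an unadjusted p under 0.05, with medians of 0.42 and 0.67. These lists can share genes with the erythroid list, so the counts are not independent. The gene with the largest difference of all (1.20) is in both the erythroid and the ubiquitin-system list. With the percent of ribosomal RNA in the model the erythroid median was -0.07, and under total-count scaling it was 0.41.

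Monocyte genes were lower. Of 20 measured genes 19 were lower in D11 mice, 9 of them with an unadjusted p under 0.05 (background 5.56%), with a median of -0.24; none was called. Cx3cr1, the fractalkine receptor, lay at 8.13, 8.76 and 9.37 in control and at 7.96, 8.34 and 8.65 in D11 mice (-0.44, adjusted p = 0.11, limma) and Ccr2, which guides monocytes out of the marrow, at 11.52, 11.80 and 12.36 against 10.48, 11.45 and 12.04 (-0.49, adjusted p = 0.11). No D11 mouse was above the control median in Cx3cr1, and 1 was in Ccr2. As a share of counts the list spanned 0.338% to 0.887% in control mice (median 0.662%) and 0.272% to 0.530% in D11 mice (median 0.427%). Leaving out control mouse 12 brought 6 of the 20 past both thresholds as lower (0.466% of all genes), among them Cx3cr1 (adjusted p = 0.0171, limma) and Ccr2 (0.034).

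The 10 lower genes with the smallest p among those past the fold threshold were led by Naaa, an amidase of lysosomes (-0.46, adjusted p = 0.0851, limma), Ms4a6d, a membrane protein of monocytes (-0.60, adjusted p = 0.0912), and Crispld2 (-0.53, adjusted p = 0.101). Naaa lay at 8.22, 8.91 and 9.27 in control and at 8.00, 8.41 and 8.68 in D11 mice, and in this gene, in Ms4a6d, in Apoe and in Msr1 no D11 mouse was above the control median. Apoe, a lipid carrier made by macrophages (-0.56), Msr1, a macrophage scavenger receptor (-0.69), Scarb1, a receptor for high-density lipoprotein (-0.43), Tmem176b (-0.53) and Cym (-0.44) shared an adjusted p of 0.106 with Cirbp, an RNA-binding protein induced by cold (-0.47). All 10 were called lower by limma without control mouse 12, with adjusted p values of 0.00303 to 0.0273. With edgeR in that setting Crispld2 had an adjusted p of 0.0675 and did not pass. Counts were low in Crispld2 (0 to 60 per D11 library) and Cym (0 to 13). No D11 mouse lay above the control median in 158 of the 10508 genes (1.5%).

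**Figure D5:**
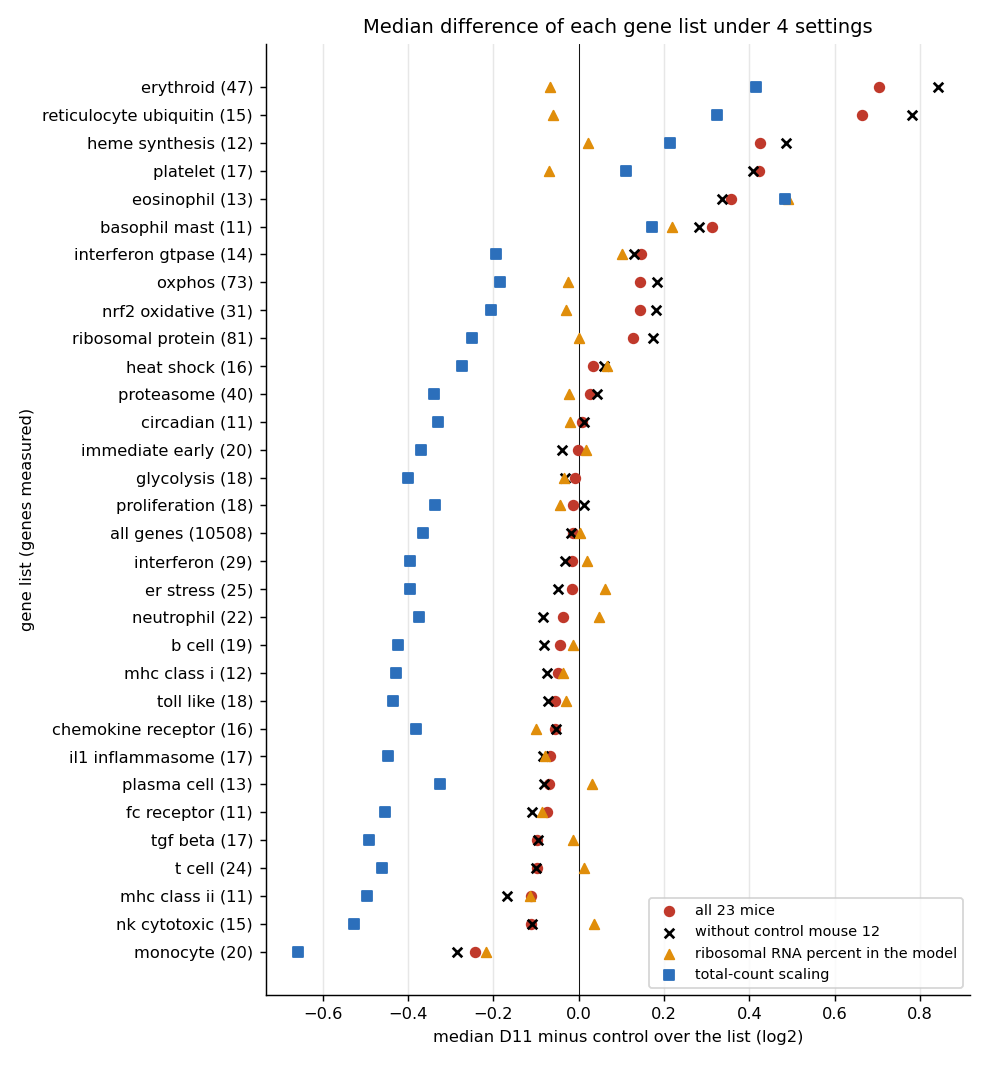
Median log2 difference, D11 minus control, of each gene list (number of genes measured in brackets) with all 23 mice, without control mouse 12, with ribosomal RNA percent in the model, and under total-count scaling. The erythroid list ranges from -0.07 to 0.84 over these settings, the eosinophil list from 0.34 to 0.49 and the monocyte list from -0.66 to -0.22.

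Neutrophil genes showed no common direction. Of 22 measured genes 8 were higher. At an unadjusted p under 0.05, 3 were higher and 1 lower, beside 10.6% and 5.56% of all genes. Camp, the cathelicidin of granules (0.60, adjusted p = 0.0913, limma), and Retnlg, a resistin-like protein (0.62, adjusted p = 0.0974), were above the control median in all 12 D11 mice, while Mmp8, a collagenase (-0.48, adjusted p = 0.136), was above it in none. Csf3r, the receptor of the growth factor G-CSF, differed by -0.12 (adjusted p = 0.812). Lymphocyte lists had medians of -0.04 for 19 B cell, -0.10 for 24 T cell and -0.11 for 15 NK and cytotoxic genes, against -0.01 over all genes. In that order 15, 20 and 14 genes were lower in D11 mice, beside 5682 of all 10508 genes. At an unadjusted p under 0.05, 0, 2 and 2 were lower and none higher. As a share of counts, not corrected by size factors, B cell genes had means of 0.4055% in D11 and 0.516% in control mice. The T cell means were 0.316% and 0.426%.

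Interferon-stimulated genes had a median of -0.02 over 29 genes, and 6 were higher at an unadjusted p under 0.05. Over all genes 10.6% were higher and 5.56% lower at that level. Isg15, a ubiquitin-like protein, lay at 10.85, 11.24 and 12.89 in control and at 11.08, 12.30 and 13.29 in D11 mice (0.88, adjusted p = 0.11, limma), and Rsad2, an antiviral enzyme (1.02, adjusted p = 0.129), and Irf7, a transcription factor of the response (0.67, adjusted p = 0.175), did not pass either. Without control mouse 12, 5 of the 29 genes were called higher (4.71% of all genes), and Isg15 reached an adjusted p of 0.0109 (limma). Among genes of the defence against oxidants, 23 of 31 were higher, 12 at an unadjusted p under 0.05 and 2 lower (median 0.14). Without control mouse 12, 10 of the 31 were called higher (4.71% of all genes). They included Gpx1, a glutathione peroxidase also abundant in red cells, and Fth1, the ferritin heavy chain. With all mice, Gpx1 differed by 1.03 (adjusted p = 0.12, limma) and Fth1 by 0.70 (adjusted p = 0.102). Respiratory chain genes (27 of 73 higher at an unadjusted p under 0.05, 3 lower, median 0.14) and ribosomal protein genes (16 of 81, none lower, median 0.13) were not called. Their medians were -0.02 and close to 0 with ribosomal RNA percent in the model. Without control mouse 12, 20 of the 73 respiratory chain and 6 of the 81 ribosomal protein genes were called higher (4.71% of all genes).

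Lgals3, the transcript of galectin-3 itself, lay at 10.58, 10.88 and 11.52 in control and at 10.48, 10.83 and 11.32 in D11 mice, a difference of -0.09 ± 0.104 (adjusted p = 0.714, limma). The groups overlapped almost wholly; the antibody binds the protein, and its level was not measured in these files. Of 7 galectin genes measured, Lgalsl, which encodes a galectin-like protein, was the only one with an unadjusted p under 0.05 (0.40, adjusted p = 0.134).

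Beside the other groups, which share the control or the D11 mice with this comparison, the 8 genes differed in where they stood. For HOCl mice (11 with vst values, since mouse 8 had none) against control, limma gave an adjusted p of at most 0.05 for 5.85% of all genes and for 5 of the 8: Ighg1 (0.76), Gng11 (0.59), Kcnj5 (0.43), Pnpla8 (0.40) and S100a10 (0.40). Ccr3 (0.06, adjusted p = 0.876), Alox15 (0.26, adjusted p = 0.465) and Camk1 (0.20, adjusted p = 0.505) did not pass there. Directly against HOCl mice, where 0.0571% of genes passed, D11 mice were higher in Ccr3 (0.90 ± 0.174, adjusted p = 0.0423), whereas Alox15 (0.53, adjusted p = 0.191) and Camk1 (0.49, adjusted p = 0.122) did not pass. E07 mice, given the other antibody of the same dose and schedule, were higher than control in Ighg1 alone (0.67, adjusted p = 0.0262; 0.00952% of genes passed), a call lost in a fit of 4 groups (adjusted p = 0.166); their Ccr3 (0.73) and Alox15 (0.76) differences had an adjusted p of 0.115. D11 mice were above E07 mice in Pnpla8 (0.47), S100a10 (0.48), Gng11 (0.64) and Kcnj5 (0.36), with 6.45% of genes passing. The 8 genes were chosen from the same D11 and control mice, which favours high D11 and low control values in these comparisons.

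Gene lists stood as follows in the same comparisons. The erythroid median was 1.14 in HOCl and -0.05 in E07 mice, each against control, beside 0.70 in D11 mice. For platelet genes the medians were 0.43, -0.04 and 0.42, and for eosinophil genes 0.11, 0.36 and 0.36, in the order HOCl, E07 and D11. The monocyte list had medians of -0.02, -0.23 and -0.24 in that order. As shares of counts, which are not corrected by size factors, the orders differed. The monocyte share had means of 0.432% in HOCl, 0.486% in E07 and 0.406% in D11 mice, against 0.630% in control. The eosinophil share was 0.0146%, 0.0299% and 0.0244% in that order, against 0.0204% in control, so that for HOCl mice it lay below control while the list median on the vst scale lay above 0.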

How the data were processed

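Total RNA of whole blood was made into strand-specific libraries after poly A selection and globin depletion. Per the paper's methods and the submitters' processing notes, the authors trimmed reads with Cutadapt, aligned them to the mouse genome mm39 (GRCm39) with STAR and counted them per gene with featureCounts. The deposited count table held raw counts of 55416 genes in 71 mice. The deposited expression table held variance-stabilised values (vst, a log2-like scale, made by the authors with DESeq2) of 10508 genes in 70 mice. Of these, 10501 were matched to count rows by symbol and 2 by annotation name. Another 5 had a repeated symbol and were left unmatched, so fits of counts on the genes of that table held 10503. Of the count genes, 54749 were found in the annotation used for positions and gene types.

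D11 and control mice were compared gene by gene with limma 3.58.1 on the vst values, as in the study's methods (only these 23 mice, no covariate, Benjamini-Hochberg adjusted p not above 0.05, fold change 1.3 or more). The counts were tested with edgeR 4.0.16 (TMM, filterByExpr, quasi-likelihood test), and with DESeq2 1.42.0 as an alternative. Single library measures were compared by two-sided permutation tests with 100000 resamples. Named genes were those past both thresholds in limma or edgeR, the 10 higher and 10 lower genes of smallest p at a fold change of at least 1.3, up to 4 members of smallest p of each gene list, Lgals3 and blood cell markers; a few genes that these rules name are not reported here. The comparison, gene lists and rules were chosen with earlier results of these data known. The labels give separate mice and no batch; p values measure the spread between these mice. No pair of libraries within a group agreed within sampling noise (lowest chi-square per degree of freedom 18.2 in control and 19.8 in D11 mice). Scripts were checked on simulated counts. R 4.3.3 and Python 3.11.15 were used.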

Additional observations from a re-analysis of the deposited data

Results flagged for a closer look

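Among the genes called for D11 against control, 5 differed between D11 mice and another group of HOCl mice when these were tested directly (limma on vst values). Ccr3 was higher in D11 than in HOCl mice by 0.8952 on the log2 scale (adjusted p = 0.04234). Against E07 mice, D11 mice were higher in Kcnj5 by 0.3562 (adjusted p = 0.03057), in Gng11 by 0.6368 (adjusted p = 0.0211), in Pnpla8 by 0.4659 (adjusted p = 0.01838) and in S100a10 by 0.4771 (adjusted p = 0.0211). Over all genes, 0.0571% had an adjusted p of at most 0.05 for D11 against HOCl and 6.45% for D11 against E07. The genes were chosen for being higher in these same D11 mice than in control mice. That choice favours higher D11 values in the direct tests, which are therefore not independent of it. Both antibodies came at the same dose and schedule, and cage and group cannot be told apart.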

How the results depend on the processing

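All alternatives concern D11 against control. With limma the count of 8 became 10 with edgeR on the same genes, 235 with DESeq2, 11 with all 6 groups and 116 with 4 groups in one fit, 10 with trended robust variances, 9 with median centring, 7 among genes above the median level, 7 with an erythroid score in the model and 18, all lower, with total-count scaling on a log2(CPM + 1) scale. Chosen after seeing the data, leaving out control mouse 12 with D11 mouse 10 gave 436, with D11 mice 3 and 10 gave 328, the percent of ribosomal RNA in the model gave 1, the erythroid score without control mouse 12 gave 17 and total-count scaling without it gave 5207; size factors on the log2(CPM + 1) scale gave 5. With edgeR the count of 8 became 10 with RLE, 1025 with library totals only (39 higher, 986 lower), 243 with DESeq2, 8 with at least 10 counts in at least 11 mice and 17 with no filter. Leaving out 1 mouse at a time gave 5 to 544 with limma and 3 to 841 with edgeR; the highest value of each was without control mouse 12. The cause was not tested.

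With the replicate number as a block the counts were 115 with limma and 63 with edgeR. These fits left out D11 mouse 3, whose number no control mouse has. Leaving out that mouse alone, with no block, gave 7 and 6. Same-numbered deviations correlated by 0.1 on average (-0.112 to 0.432, over 0.1 in 5 of 11 pairs), and those of other numbers by -0.00445. Of 11 D11 mice 1 correlated best with its own number. The labels do not say that numbers pair the mice, and these values do not settle it.

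Some directions turned. With the percent of ribosomal RNA in the model the log2 difference was -0.021 for Gp9, -0.12 for Clec1b, -0.033 for Itga2b, -0.22 for Alas2, -0.14 for Slc4a1, -1.20 for Hbb-bs, -1.51 for Hba-a1, -0.075 for Isg20, -0.020 for Gclm and -0.0047 for Rpl41. With the erythroid score it was -0.13 for Alas2, -0.23 for Slc4a1, -0.053 for Hbb-bs and -0.25 for Hba-a1, and without control mouse 12 as well -0.21, -0.38, -0.039 and -0.38 in the same order. Total-count scaling without control mouse 12 gave -0.045 for Itga2b. S100a8 ran from -0.16 (without control mouse 8) to 0.039 (without control mouse 6) as 1 mouse was left out. Of the 8 called genes, the number past an adjusted p of 0.05 in E07 against control went from 1 to 0 in a fit of 4 groups (Ighg1, adjusted p = 0.166). Low counts limit Ighg1 and Kcnj5 among the 8, with at most 212 and 122 counts in any control or D11 library. Some named genes that were not called had fewer, among them Cym (0 to 91 in control, 0 to 13 in D11), Crispld2 (27 to 115 and 0 to 60) and Camp (0 to 68 and 12 to 111).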

Other observations

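Of 2760 genes tested by edgeR and not matched to the vst table, 0 were called. Of these, 203 were higher and 38 lower at an unadjusted p under 0.05. Among the 647 long noncoding RNAs in that set 77 were higher (11.9%) and 8 lower (1.24%) at that level, beside 9.28% and 5.43% of all genes tested by edgeR. Of 36 histone genes measured 31 were higher in D11 mice, 7 with an unadjusted p under 0.05 (10.6% of all genes) and none lower (median 0.16). Histone mRNAs of dividing cells mostly lack a poly A tail, and the libraries were poly A selected.

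Genes higher in D11 mice at an unadjusted p under 0.05 had shorter canonical transcripts (median 2752 bases) than all genes (3118), and the lower ones longer transcripts (3733). Among the 2626 genes with the shortest transcripts 13.5% were higher and 3.46% lower at that level, and among the 2623 with the longest 7.13% and 7.24%. For HOCl against control the medians of higher and lower genes were 2955 and 2889 bases, and for E07 against control 2348 and 3777; these comparisons share the control mice. The median difference from the shortest to the longest of 4 length classes of near-equal size was 0.02, -0.01, -0.02 and -0.04, and with the percent of ribosomal RNA in the model 0.01, 0.0044, -0.0038 and 0.0049.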
